A study of Mus musculus with 36 samples.

Results

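The glypicans are a family of 6 genes in the mouse, Gpc1 to Gpc6, and their messenger RNA was followed here in embryonic gonads with and without the miR-17~92 cluster of microRNAs. The members were chosen by gene symbol, which gave 6 of the 21699 genes in the count tables, and no count or fold change decides membership. The family itself was taken up with results of these data already known. Gpc5 and Gpc6 are also the nearest protein-coding genes downstream of the deleted cluster on chromosome 14. Bulk RNA-seq covered 4 genotypes at each of 2 embryonic stages, E11.5 and the following day, E12.5, with 3 libraries in each of the 8 groups and 24 libraries in all. KO gonads were XX or XY and carried Tg(CAG-cre)1Nagy;miR-17~92del/del, in which a broadly active CAG promoter drives Cre, so the deletion is not limited to one gonadal cell type. XX control and XY control gonads are labelled wild type, and whether they carried the Cre transgene is not given in the sources used here. Each library pooled 2 pairs of gonads. At E11.5 the tissue was the gonad with its mesonephros, the embryonic kidney beside it, and at E12.5 the gonad alone. The stages also differ in library kit, so each stage was fitted on its own and levels are not compared between stages.

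Glypicans are proteoglycans that are held on the outer face of the cell membrane by a GPI lipid anchor and carry heparan sulphate chains. Through these chains and the core protein they bind Hedgehog, Wnt, FGF and BMP ligands and raise or lower the signal that a cell receives. Loss of GPC3 causes the human overgrowth disorder Simpson-Golabi-Behmel syndrome, and GPC3 can compete with the receptor Patched for Hedgehog. In the fetal testis, Desert hedgehog from Sertoli cells acts on interstitial cells that give rise to fetal Leydig cells.

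MicroRNAs repress messages through short matches to their seed. The 6 main mature microRNAs of the deleted cluster are shown because the family's messages were searched for these matches. The capitals mark the seed, bases 2 to 8 from the 5′ end, and the sequences are from RefSeq (GRCm38.p6).
mmu-miR-17-5p: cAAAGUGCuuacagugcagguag
mmu-miR-20a-5p: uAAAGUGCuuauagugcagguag
mmu-miR-18a-5p: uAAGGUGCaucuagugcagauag
mmu-miR-19a-3p: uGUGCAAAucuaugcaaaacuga
mmu-miR-19b-3p: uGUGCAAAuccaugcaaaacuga
mmu-miR-92a-3p: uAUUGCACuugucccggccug
The first pair share a seed, as do miR-19a and miR-19b, while miR-18a differs from miR-17 within the seed and miR-92a has a seed of its own. The matching 7 letters were searched on the message strand in the 3′ untranslated region (UTR) of the longest coding transcript of 20949 genes. GCACTTT occurs in 11.7% of these UTRs, GCACCTT in 7.8%, TTTGCAC in 11.3% and GTGCAAT in 6.5%, and 28.6% hold at least 1 of them. None of these 4 matches occurs in the annotated UTR of any of the 6 glypicans, whose UTRs run from 359 bases in Gpc3 to 2215 bases in Gpc1, against a median of 937 bases over all genes. The matches to bases 2 to 7 that end in an adenine are CACTTTA for miR-17 and miR-20a, CACCTTA for miR-18a, TTGCACA for the miR-19 pair and TGCAATA for miR-92a. At least 1 of them is in 29.6% of all UTRs and none is in those of the glypicans. RefSeq ends Gpc4 (chrX:52051007) and Gpc6 (chr14:117979529) further downstream, by more than their searched UTRs of 500 and 1458 bases. Those added bases were not searched, so the absence of matches holds only for the UTRs searched.

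The 6 genes lie in 4 places of the GRCm38 genome. Gpc5 (ENSMUSG00000022112) is at chr14:115092215-116525179 and Gpc6 (ENSMUSG00000058571) at chr14:116925315-117976544, both on the forward strand. Mir17hg (ENSMUSG00000089726), the non-coding host gene of the cluster, is at chr14:115042879-115046727 on the same strand. It ends 45.5 kb before Gpc5, with no protein-coding gene between, and Gpc5 ends 400.1 kb before Gpc6. The related Mir106a to Mir363 cluster has a similar neighbourhood on chromosome X, where Gpc4 (ENSMUSG00000031119) at chrX:52053021-52165252 and Gpc3 (ENSMUSG00000055653) at chrX:52272426-52613950 stand 107.2 kb apart on the reverse strand. Mir363, the nearest hairpin of that cluster, is 127.7 kb from Gpc3 with no protein-coding gene between. Gpc2 (ENSMUSG00000029510) at chr5:138273655-138280005 is 107.8 kb from Mir106b of the third related cluster, with 8 protein-coding genes between. Gpc1 (ENSMUSG00000034220) is at chr1:92831645-92860779, near none of the 3 clusters. Gpc2 shares 2376 exonic bases with the overlapping gene model Gm43720 on its own strand, so its counts are uncertain as to which model they belong to. Exons of Gpc1 overlap those of Ankmy1 by 977 bases and exons of Gpc5 those of Gm20713 by 107 bases on the opposite strand, and whether counting used strand is not given in the sources used here.

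Levels are given as CPM, counts scaled to a common TMM-normalised library size, as mean ± SD of 3 libraries, and levels of different genes are compared as RPKM, which is CPM divided by the transcript length in kilobases. Differences are log2 fold changes ± standard error (SE) from edgeR's quasi-likelihood test, fitted to the 12 libraries of a stage and adjusted by the Benjamini-Hochberg method over all genes tested, and genes with FDR under 0.05 are called. Total counts ran from 17150620 to 34077443 per library at E11.5 and from 11877379 to 44155275 at E12.5. The genes Xist, Ddx3y, Eif2s3y, Kdm5d and Uty followed the labelled sex in all 24 libraries. Reads over Mir17hg as a whole, which do not measure the deleted hairpins, came to 98.2 to 154 CPM in KO and 17.6 to 44.6 CPM in control libraries at E11.5, and to 66.7 to 83.8 against 13.4 to 37.3 CPM at E12.5. The gonadal somatic markers Nr5a1, Wt1, Gata4, Lhx9 and Emx2 summed to at least 885 CPM in every library. Of the 3 XY control libraries at E11.5, replicate 2 stood apart, differing from the other two by 44.4 and 47.6 times the sampling variance where those differed by 26.2 times. Likewise, XX KO replicate 2 at E12.5 differed from its group by 79.1 and 78.8 times, against 42.7 times between the others. Glypican calls that rest on these libraries are also given without them, while values of other named genes are from all libraries. Without the first, all genes called between XY KO and XY control at E11.5 went from 1804 to 2891. Without the second, those called between XX KO and XX control at E12.5 went from 755 to 1670.

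Gpc3 was the most abundant glypican per unit length in every group and Gpc5 the least. At E11.5 Gpc3 had 585 ± 26.2 RPKM in XX controls and took 78.0% of the summed RPKM of the family, and Gpc5 had 0.682 ± 0.085 RPKM. Between them the order in XX controls, XX KO and XY KO was Gpc6, Gpc2, Gpc1 and Gpc4, and no neighbours in that order overlapped in their libraries. In XY controls Gpc2 stood above Gpc6 and these overlapped. At E12.5 the share of Gpc3 was 55.6% in XX controls and 72.0% in XY controls, with 66.6% in XX KO and 65.5% in XY KO gonads between them. The order below Gpc3 then differed by genotype, with Gpc4 next in XX controls (50.5 ± 7.10 RPKM) and in both KO genotypes, and Gpc1 next in XY controls (45.8 ± 8.85 RPKM). Several neighbours overlapped at this stage, among them Gpc1 and Gpc6 in XY controls, Gpc2 and Gpc6 in XX controls and Gpc4 and Gpc6 in XY KO gonads.

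The sexes differed in glypican expression at E12.5, when the testis has begun to form. Gpc1, Gpc3 and Gpc6 were lower in XX than in XY controls and Gpc2 was higher, so that 4 of the 6 genes were called, where 23.8% of all genes tested were called in this comparison. The same 4 genes had no overlap between the libraries of XX and XY controls, against 36.6% of all genes. Gpc3 stood at 402, 276 and 427 CPM in the XX control and at 768, 885 and 914 CPM in the XY control libraries. Every XX control library lay below every XY control library, and the log2 fold change of XX against XY was −1.21 ± 0.16 (edgeR, FDR = 6.97e-05). Gpc1, a glypican known for its part in FGF signalling in the brain, had 98.4, 83.7 and 91.1 CPM in XX controls and 228, 191 and 154 CPM in XY controls. The groups were apart and the log2 fold change was −1.07 ± 0.17 (edgeR, FDR = 0.000223). Gpc2, first described in the developing nervous system, had 62.3, 75.6 and 95.4 CPM in XX and 49.5, 50.4 and 53.9 CPM in XY controls. It was the member that was higher in XX, by a log2 fold change of 0.60 ± 0.15 (edgeR, FDR = 0.00718). Gpc6, whose human gene is mutated in the skeletal disorder omodysplasia, had 117, 86.6 and 95.3 CPM in XX and 152, 149 and 170.1 CPM in XY controls, a log2 fold change of −0.66 ± 0.21 (edgeR, FDR = 0.0359). That call was lost without any 1 of 5 libraries, all the XY controls and XX control replicates 2 and 3 (FDR from 0.0641 to 0.129). Gpc4 had 134 ± 18.8 CPM in XX and 103 ± 18.1 CPM in XY controls, groups that overlapped and were not called (edgeR, FDR = 0.0751).

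**Figure D1:**
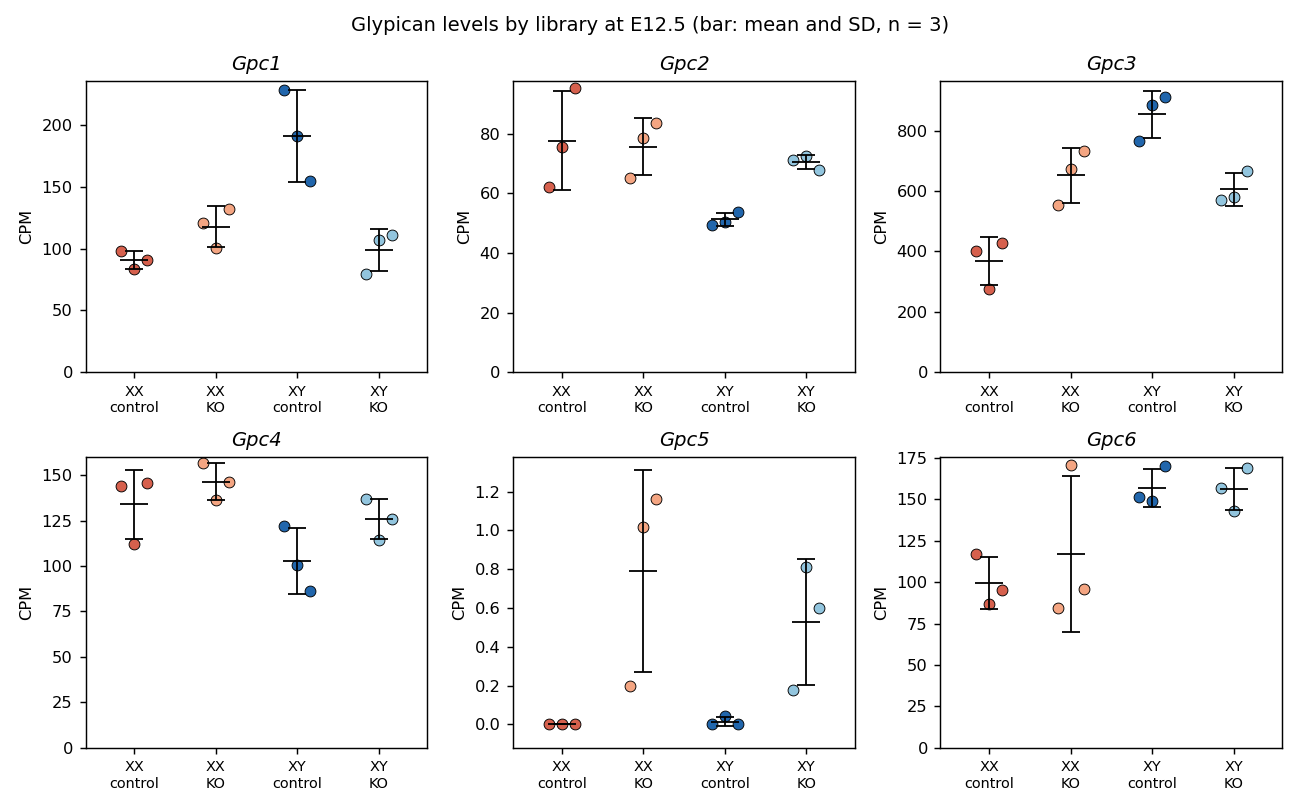
CPM of each glypican in the 12 libraries at E12.5, by genotype on the horizontal axis; points are libraries and bars are the mean ± SD of 3. XY control libraries are highest for Gpc1 and Gpc3, the KO genotypes of Gpc3 lie between the controls, and Gpc5 has reads above 1 count only in KO libraries.

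In XY gonads at E12.5 Gpc1 and Gpc3 fell and Gpc2 rose with the deletion, each in the direction of the XX control. Leaving out Gpc5, 3 of the 5 genes were thus called against XY controls, where 20.6% of all genes tested were called, and the same 3 had no overlap, against 39.1% of all genes. Gpc5 was also called, away from the XX control, and is described apart, since it passed the filter on low counts only through KO libraries. Gpc1 had 79.5, 107 and 111 CPM in the XY KO libraries, all below the XY control libraries, and fell by 0.95 on the log2 scale (SE 0.17, edgeR, FDR = 0.000765). Its XY KO libraries spanned the range of the XX controls. Gpc3 stood at 569 (replicate 1), 581 and 668 CPM in XY KO gonads, below every XY control and above every XX control library. Its log2 fold change was −0.50 ± 0.16 (edgeR, FDR = 0.0434), and the FDR rose to between 0.0531 and 0.135 without XY control replicates 2 or 3, XY KO replicates 1 or 2 or XX control replicate 1, and to 0.0622 when library size alone was used for scaling. Gpc2 rose from 51.3 ± 2.32 to 70.6 ± 2.39 CPM, by 0.46 ± 0.15 on the log2 scale (edgeR, FDR = 0.0376). Its libraries were apart, although the call was lost without any 1 of the 6 libraries compared (FDR from 0.0572 to 0.113). Gpc6 differed from the other dimorphic members, with 157, 143 and 169 CPM in the XY KO libraries, which overlapped the XY controls (log2 fold change −0.00 ± 0.21, edgeR, FDR = 0.992). Gpc4 had 126 ± 11.2 CPM in XY KO gonads and was not called (edgeR, FDR = 0.191).

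In XX gonads at E12.5 Gpc3 moved the other way. It stood at 553, 672 and 732 CPM in the XX KO libraries, every one above the XX controls, and rose by 0.82 ± 0.16 on the log2 scale, a fold of 1.77 (edgeR, FDR = 0.0145). The FDR was 0.0182 without XX KO replicate 2, and it was above 0.05, at 0.0549 to 0.0691, without XX control replicate 1, XX control replicate 2 or XX KO replicate 3 and, at 0.0539, when only XX libraries were fitted. Leaving out Gpc5, this made 1 of 5 genes called, where 5.26% of all genes tested were called, and 2 with no overlap, against 23.5% of all genes. The other one was Gpc1, at 120.8, 100.2 and 132 CPM in XX KO gonads, whose log2 fold change of 0.37 ± 0.16 was not called (edgeR, FDR = 0.191). Gpc2 and Gpc4 overlapped between the XX genotypes. Gpc6 had 84.2, 171 and 96.0 CPM in XX KO libraries, where replicate 2 alone reached the level of XY gonads. Its log2 fold change against XX controls was 0.23 ± 0.21 with that library and −0.14 without it, and neither was called.

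The effect of the deletion on Gpc1 and Gpc3 differed between XX and XY gonads at E12.5. The difference of the log2 fold changes, XX minus XY, was 1.32 ± 0.23 for Gpc1 (edgeR interaction, FDR = 0.00144) and 1.32 ± 0.23 for Gpc3 (edgeR interaction, FDR = 0.00131). These were 2 of 6 members called, where 12.9% of all genes tested were called, and they stayed called in each alternative and without each library in turn. Gpc2, Gpc4 and Gpc6 had differences of −0.50 ± 0.21, −0.16 ± 0.20 and 0.24 ± 0.30 that were not called. When the KO genotypes were compared with each other, 0 of 6 glypicans were called and 0 had no overlap, where 0.153% and 20.1% of all genes were. No member had an unadjusted p under 0.05 in this edgeR comparison, and DESeq2 also called 0. Gpc3 had a mean of 652 ± 91.3 CPM with XX and 606 ± 53.9 CPM with XY chromosomes, and the log2 fold change of XX KO against XY KO was 0.11 ± 0.16. Without XX KO replicate 2, Gpc6 was called in this comparison with a log2 fold change of −0.80 (edgeR, FDR = 0.0109). That fit called 1828 of all genes tested, against 22 with all libraries. The comparisons of each stage share control or KO libraries, so their values are given side by side and not as independent results.

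**Figure D2:**
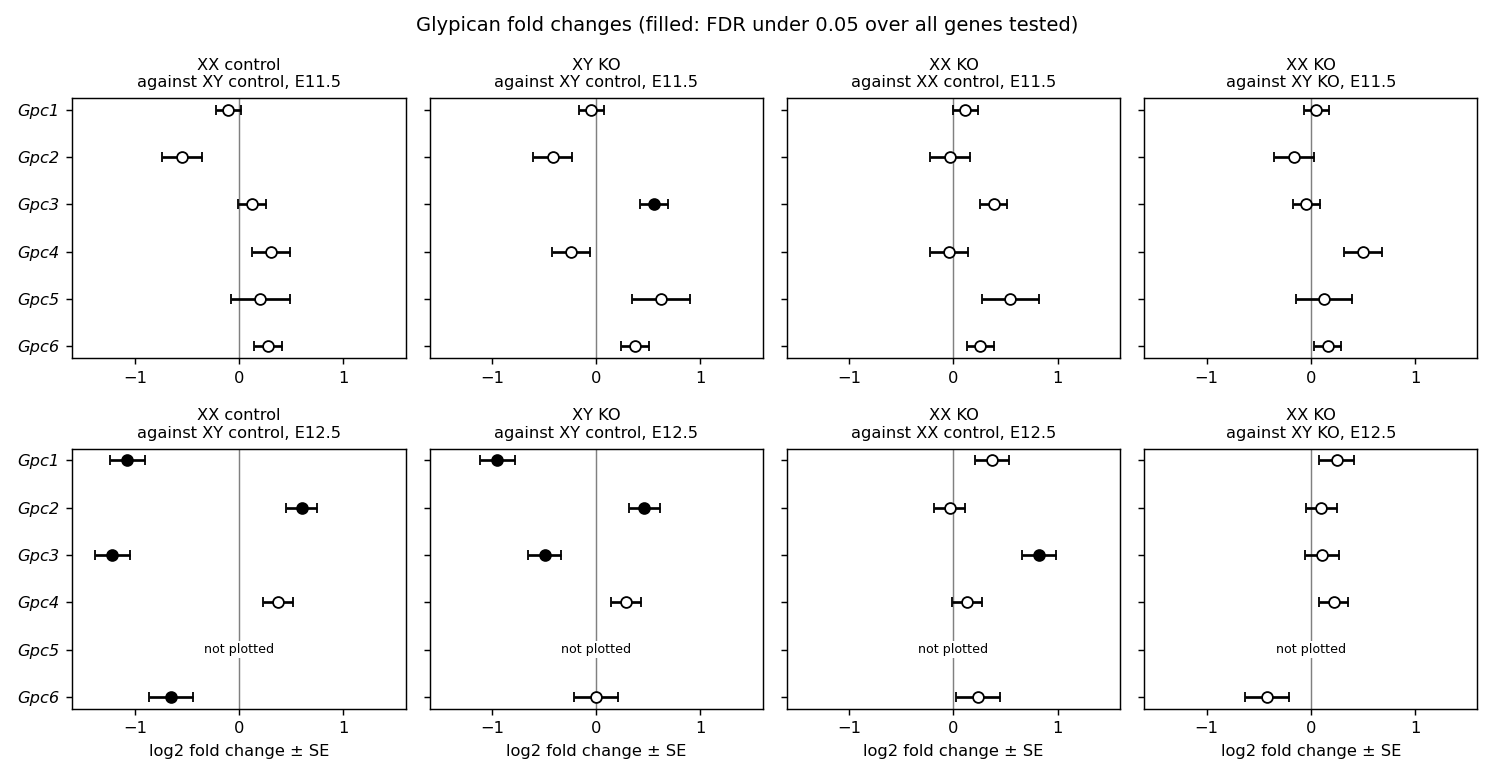
log2 fold change ± SE (horizontal axis) of each glypican in the 4 comparisons at E11.5 (upper row) and E12.5 (lower row), with filled points for FDR under 0.05. Gpc1 and Gpc3 are negative against XY controls at E12.5 in both XX control and XY KO gonads, and Gpc5 at E12.5 is not plotted because its counts were low.

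Summed cell markers also differed between genotypes. At E12.5 the 7 Sertoli markers, Sox9 and Amh among them, summed to 1397 to 2096 CPM in XY controls and to no more than 71.3 CPM in any other library, and all 7 were called lower in XX control and in XY KO gonads. The 5 fetal Leydig markers summed to 822 to 1767 CPM in XY controls and to at most 53.9 CPM elsewhere, and all 5 were called lower in the same comparisons. Over all genes tested, 23.8% were called between the controls and 10.3% were called lower in XY KO gonads. The 6 pre-granulosa markers, with Foxl2 among them, had 78.3 to 105 CPM in XY controls, 668 to 919 CPM in XX controls, 677 to 978 CPM in XX KO and 546 to 586 CPM in XY KO gonads. Neural markers summed to 34.8 to 43.7 CPM in XY controls and to at most 18.8 CPM elsewhere. Proliferation markers were highest in XY controls, at 1839 to 2386 CPM against 1153 to 1680 CPM in the other libraries. Germ cell markers had 301 to 719 CPM in XX KO and 733 to 1417 CPM in XX control gonads, and 595 to 745 CPM in XY KO and 766 to 1073 CPM in XY control gonads. Endothelial markers had 635 to 725 CPM in XY KO and 465 to 580 CPM in XY control gonads, and gonadal somatic markers 1721 to 1802 CPM and 1348 to 1552 CPM. The part of these cells in the glypican differences was not tested, and in bulk RNA fewer cells of a type cannot be told apart from less RNA per cell.

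Gpc5, which can bind Hedgehog ligands, was near 0 in control gonads at E12.5 and had reads in each KO library. The XX control libraries had 0, 0 and 0 counts and the XY control libraries 0, 1 and 0. XX KO libraries had 6, 45 and 32 counts and XY KO libraries 3, 12 and 22, so no KO library overlapped a control. A count of 0 allows a limit of 3 counts over the XX control group. Gpc5 pooled over the 3 XX KO libraries was 15.0-fold above that limit. This figure holds no error of the KO counts and no spread between the XX KO libraries, which ran from 0.197 to 1.16 CPM. In XY gonads 37 counts against 1 gave a ratio of 31.1 (exact 95% counting interval 5.24 to 1259), and this interval covers counting error only. Gpc5 was tested at this stage only because KO libraries brought it past the filter on low counts, so its calls in both sexes are a description and add no support. Without XX KO replicate 2 or without XX KO replicate 3 it did not pass that filter and was not tested. Either omission left 3 glypicans called in XY KO gonads, and in XX KO gonads 1 was called without replicate 2 and 0 without replicate 3 (edgeR).

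The summed level of mesonephric epithelium markers was also higher in 5 of the 6 KO libraries than in any control library. The 7 markers Pax2, Pax8, Lhx1, Gata3, Cdh16, Ret and Wnt9b summed to 37.7 to 45.2 CPM in XX controls and 29.4 to 36.4 CPM in XY controls. They reached 56.3, 117 and 135 CPM in XX KO replicates 1, 2 and 3 and 34.4, 63.3 and 104 CPM in XY KO replicates 1, 2 and 3. Replicate 1 was lowest for both Gpc5 and the markers in each KO genotype. The other XY KO libraries differed in order, with Gpc5 at 0.810 CPM in replicate 2 and 0.601 CPM in replicate 3, which had the higher marker sum. Cdh16, a cadherin of renal tubules, had 14.8 to 76.3 CPM in XX KO and 4.50 to 49.1 CPM in XY KO gonads, against at most 1.31 CPM in controls, and the lowest XY control library had 0 CPM. The rise in the sums thus rests in large part on this gene. Of the 7 markers, 3 were called higher in XX KO gonads (Cdh16, Pax8 and Wnt9b), where 3.42% of all genes were called higher. In XY KO gonads 5 were called higher and Lhx1 lower, where 10.3% of all genes were called in each direction. At E11.5, where the mesonephros was part of the tissue, the same markers summed to 192 to 317 CPM. Gpc3 at E12.5 had the same order of libraries as these sums in each KO genotype, and a different order in each control genotype. Whether mesonephric tissue in the KO samples carried the Gpc5 reads, or had a part in the values of Gpc3, was not tested.

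**Figure D3:**
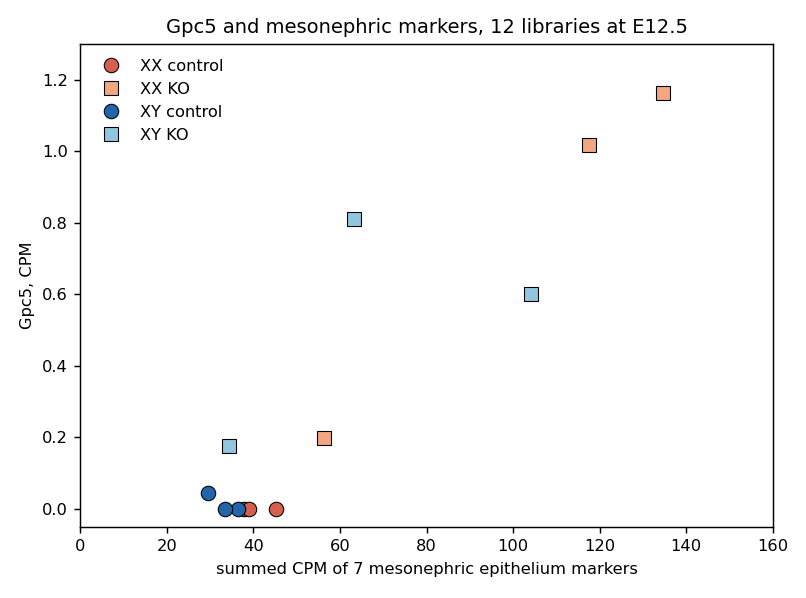
Gpc5 (CPM, vertical axis) against the summed CPM of 7 mesonephric epithelium markers (horizontal axis) in the 12 libraries at E12.5, 1 point each. The 6 control libraries lie at the lower left, with marker sums up to 45.2 CPM, and the KO libraries with the most Gpc5 have marker sums from 63.3 to 135 CPM.

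E11.5 is around the time when the sex of the gonad is decided. Between XX and XY controls of this stage 0 of 6 were called by edgeR and 0 had no overlap, where 0.886% and 17.4% of all genes were, while 2 (Gpc2 and Gpc6) had an unadjusted p under 0.05 and DESeq2 called 0. Those 2 genes turned on XY control replicate 2. Gpc2 had 254, 124 and 190 CPM in the XY control libraries against 140, 137 and 111 CPM in XX controls, so that replicate 2 alone fell in the XX range. Without it, the XX against XY log2 fold change was −0.78 (edgeR, FDR = 0.00139) in place of −0.55, and for Gpc6 it was 0.47 (edgeR, FDR = 0.00951) in place of 0.28. The number of all genes called in this comparison went from 126 to 2495 when that library was left out. Marker sums of this library also differed from its group, with 317 CPM of mesonephric epithelium markers against 227 and 192 CPM.

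Gpc3 was higher in KO than in control gonads of both sexes at E11.5. XY KO libraries had 1811, 1957 and 1455 CPM and XY controls 1171, 1345 and 1047 CPM, with no overlap and a log2 fold change of 0.55 ± 0.13 (edgeR, FDR = 0.0153). It was the member called of 6 (12.7% of all genes tested were called) and the only 1 with no overlap, against 28.5% of all genes. The FDR was 0.00523 without XY control replicate 2 and between 0.0516 and 0.0740 without any of 4 others, namely XY control replicates 1 and 3 and XY KO replicates 1 and 2. XX KO libraries had 1660.1, 1496 and 1921 CPM and XX controls 1332, 1327 and 1229 CPM. These libraries did not overlap either, but the log2 fold change of 0.38 ± 0.13 was not called (edgeR, FDR = 0.147), and the difference between the sexes was −0.17 ± 0.19 (edgeR interaction, FDR = 0.757). In XX gonads 0 of 6 members were called by edgeR and by DESeq2, where edgeR called 3.27% of all genes, 1 had an unadjusted p under 0.05, and 3 had no overlap, against 24.6% of all genes. The macrophage markers had 32.1 to 45.8 CPM in KO and 55.4 to 81.1 CPM in control libraries of this stage. The 7 Sertoli markers had 78.9 to 90.3 CPM in XY KO and 168 to 307 CPM in XY control libraries. In XX KO and XX control libraries they had 85.4 to 101 and 89.0 to 113 CPM, which overlapped. Fetal Leydig markers had 13.4 to 18.3 CPM in KO and 22.9 to 32.2 CPM in control libraries. Gonadal somatic markers had 885 to 1074 CPM in XY KO and 1097 to 1166 CPM in XY control gonads, with Nr5a1 and Gata4 called lower, and pre-granulosa markers had 274 to 327 CPM in XX KO and 384 to 391 CPM in XX control gonads. The part of these cells in the values of Gpc3 was not tested.

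The cluster's neighbours Gpc5 and Gpc6 had positive log2 fold changes in both sexes at E11.5 and were not called in either. Gpc6 had 264, 227 and 217 CPM in XY KO and 157, 227 and 163 CPM in XY control libraries, which overlapped through XY control replicate 2, with a log2 fold change of 0.37 ± 0.13 (edgeR, FDR = 0.0719). It was called by DESeq2 and without that library, where it was 0.56 (edgeR, FDR = 0.00305). In XX gonads Gpc6 had 272, 234 and 288 CPM in KO and 220.4, 216 and 228 CPM in control libraries, which did not overlap, with a log2 fold change of 0.26 ± 0.13 (edgeR, FDR = 0.366). Gpc5, with 26 to 75 counts per library, had log2 fold changes of 0.62 ± 0.28 in XY and 0.55 ± 0.27 in XX gonads (edgeR, FDR = 0.149 and 0.358). Gpc1 and Gpc4 had log2 fold changes between −0.24 and 0.11 against their controls, none called, and Gpc2 was at −0.42 ± 0.19 in XY KO gonads (edgeR, FDR = 0.163) and −0.65 without XY control replicate 2 (edgeR, FDR = 0.00304). With the KO genotypes set against each other, edgeR and DESeq2 called 0 of 6, where edgeR called 0.0844% of all genes. Gpc4 was the 1 member without overlap, against 24.5% of all genes, and the 1 with an unadjusted p under 0.05, at 54.1 ± 10.9 CPM in XX KO and 38.2 ± 1.78 CPM in XY KO gonads (edgeR, FDR = 0.222). The interaction called 0 of 6 by edgeR and by DESeq2, with 0 at an unadjusted p under 0.05 and 0.0352% of all genes called.

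**Figure D4:**
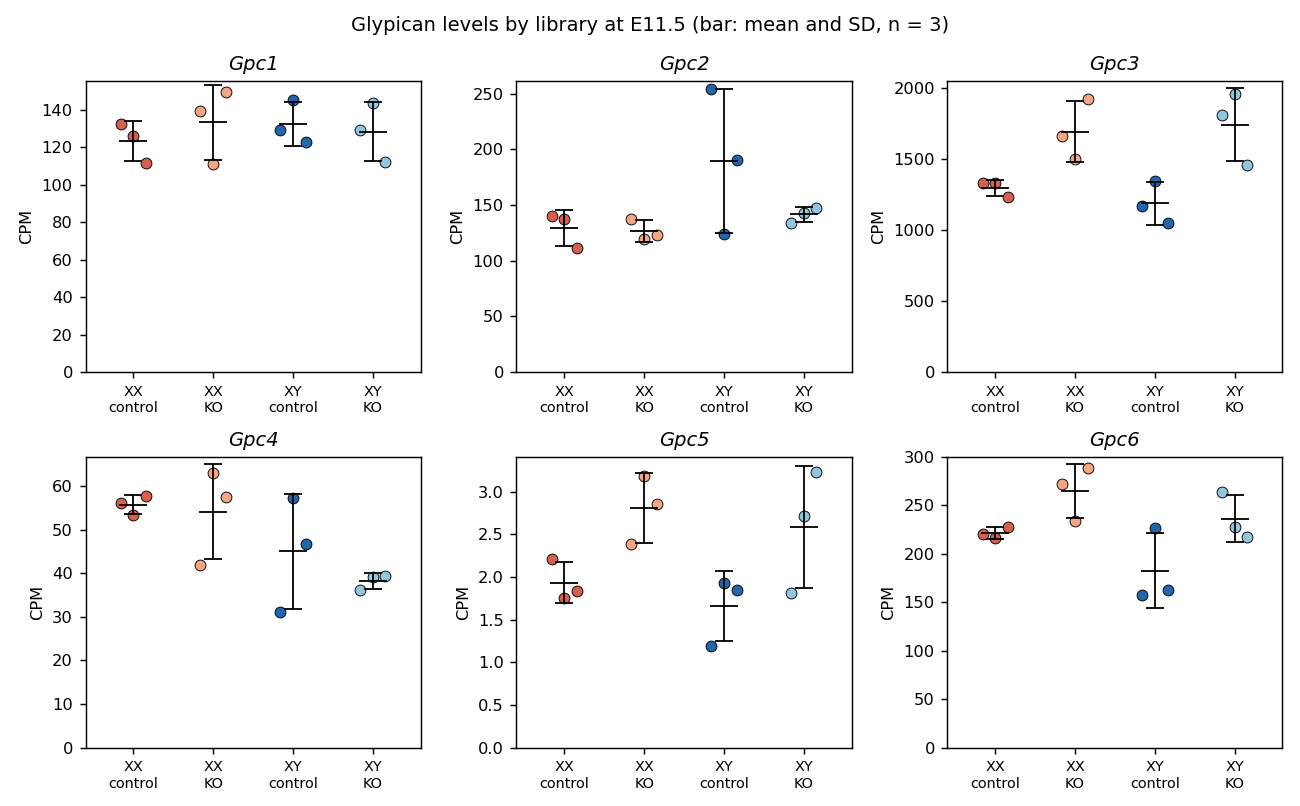
CPM of each glypican in the 12 libraries at E11.5, by genotype on the horizontal axis; points are libraries and bars are the mean ± SD of 3. All KO libraries of Gpc3 lie above all control libraries, and XY control replicate 2, the middle point of its group, is the lowest of the group for Gpc2 and the highest for Gpc6.

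Other protein-coding genes around the cluster changed in both directions. Within 10 Mb of Mir17hg the annotation has 45 protein-coding genes, of which 43 are in the tables and 32 were tested at each stage, both glypicans included. At E11.5 XY KO gonads had 1 of the 32 called higher (Tm9sf2, 0.38 ± 0.09 on the log2 scale) and 2 lower, Dct at −1.32 ± 0.22 and Dock9 at −0.41 ± 0.12, where 5.88% of all genes were called higher and 6.81% lower. XX KO gonads had Slitrk1 lower, at −0.94 ± 0.19, where 1.81% of all genes were called higher and 1.46% lower. At E12.5, XY KO gonads had 8 higher, Gpc5 among them, and 1 lower, where 10.3% of all genes were called in each direction. The higher ones included Nalcn (3.45 ± 0.55), Cldn10 (3.10 ± 0.74), Slitrk1 (2.08 ± 0.24), Dock9 (0.77 ± 0.14), Uggt2 (0.67 ± 0.19), Dzip1 (0.64 ± 0.13) and Clybl (0.60 ± 0.16), and the lower one was Rap2a (−0.88 ± 0.12). In XX KO gonads 2 were higher, Gpc5 and Cldn10 (2.68 ± 0.53), and 4 lower, Slc15a1 (−1.11 ± 0.28), Slitrk1 (−0.86 ± 0.22), Stk24 (−0.61 ± 0.12) and Dock9 (−0.51 ± 0.14), where 3.42% of all genes were called higher and 1.85% lower. Cldn10, a claudin of tight junctions in kidney tubules, was called higher with Gpc5 in both sexes. Its highest group mean was 1.19 CPM, close to the filter of 1 CPM. Gpc5 passed that filter at E12.5 only through KO libraries, so its place among the higher genes adds no support. The medians over the 32 genes were between −0.10 and 0.07 in these 4 comparisons.

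**Figure D5:**
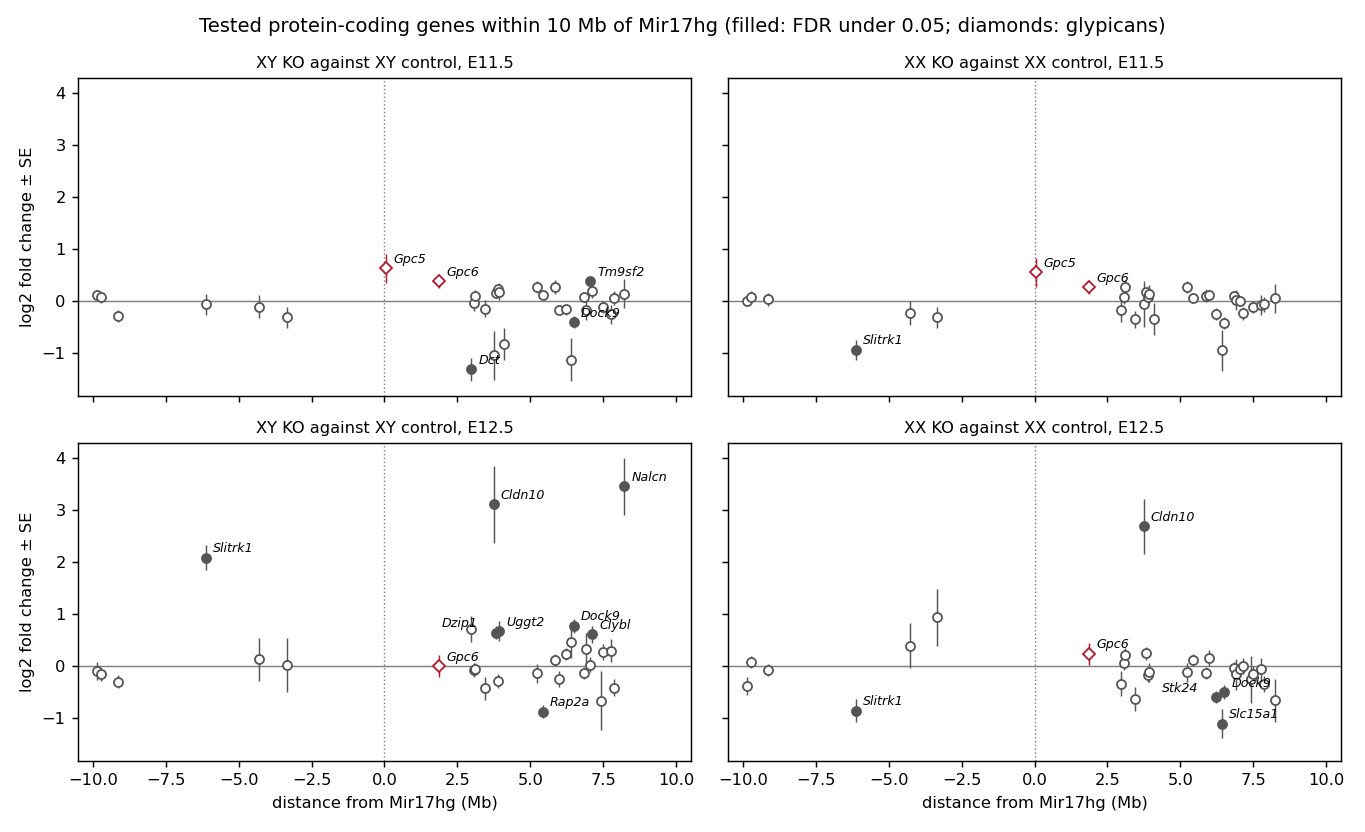
log2 fold change ± SE (vertical axis) of the tested protein-coding genes within 10 Mb of Mir17hg against their distance from it in Mb (horizontal axis, downstream positive), for KO against control of each sex and stage. Diamonds are glypicans and filled points passed FDR under 0.05; Gpc5 at E12.5 is left out since its fitted value depends on control counts of 0 or 1, and Gpc6 lies near 0 in XY gonads of that stage.

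Enzymes that act on heparan sulphate outside the cell, listed together with the Wnt enzyme Notum, differed between genotypes at E12.5. All 4 genes of this list were called between XX and XY controls and between XY KO and XY control gonads, with the same direction in each, where 23.8% and 20.6% of all genes were called. Notum, a secreted enzyme that inactivates Wnt by removing its lipid, had 3.38 CPM in XY controls, 14.1 CPM in XX controls, 17.7 CPM in XY KO and 26.4 CPM in XX KO gonads, and its log2 fold change in XY KO gonads was 2.38 ± 0.37 (edgeR, FDR = 0.000284). Sulf1, a sulphatase that trims heparan sulphate, rose by 2.06 ± 0.14 in XY KO gonads (edgeR, FDR = 1.92e-07) and Hpse, the heparanase, by 2.24 ± 0.23 (edgeR, FDR = 6.79e-06). Sulf2 changed in the same directions as Gpc3, since it was lower in XX than in XY controls (−1.08 ± 0.15), fell by 0.55 in XY KO (SE 0.15, edgeR, FDR = 0.0140) and rose by 0.54 in XX KO gonads (SE 0.15, edgeR, FDR = 0.0456). At E11.5, Sulf1 was called higher in XY KO gonads (0.50 ± 0.10). The median log2 fold change of the list was 2.15 in XY KO against control gonads at E12.5, beside −0.01 for all genes.

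Genes that build and modify the heparan sulphate chain changed in both directions. Of 11 genes for the linkage and growth of the chain, Xylt2, which starts it, rose in XX KO gonads at E11.5 (0.75 ± 0.10) and E12.5 (0.84 ± 0.19) and in XY KO gonads at E11.5 (0.31 ± 0.10). In XY KO gonads Extl2 (0.40 ± 0.12) rose and Xylt1 (−0.65 ± 0.18) fell at E11.5, and Ext1 (0.67 ± 0.11) rose at E12.5, while Ext2 (0.49 ± 0.13) rose in XX KO gonads at E12.5. Extl1 was at −0.59 in XY KO gonads at E12.5 and was not called (edgeR, FDR = 0.0660). That made 3, 1, 1 and 2 called of 11 in XY KO at E11.5, XX KO at E11.5, XY KO at E12.5 and XX KO at E12.5, where 12.7%, 3.27%, 20.6% and 5.26% of all genes were called. Of 18 genes that modify the chain, the earlier stage had 17 tested and the later stage 15. The N-sulphotransferases Ndst3 and Ndst4 fell in both sexes at E11.5, Ndst4 from 2.41 to 0.781 CPM in XY and from 2.11 to 0.741 CPM in XX gonads, and Hs6st1 fell by 0.70 in XY KO gonads (SE 0.10). With Hs2st1 higher this made 4 called in XY KO and 2 in XX KO gonads, beside 12.7% and 3.27% of all genes. At E12.5 Hs3st2 rose and Hs6st2 fell in both sexes, Hs6st2 by 1.25 in XY KO (SE 0.15) and 0.59 in XX KO (SE 0.15), among 6 called in XY KO and 2 in XX KO gonads, beside 20.6% and 5.26% of all genes. Ndst4 rose by 4.62 ± 0.45 in XY KO gonads at this stage, from 0.13 to 3.56 CPM.

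Among the 7 other heparan sulphate proteoglycans, E12.5 XY KO gonads had 3 called, each of them lower, where 10.3% of all genes were called lower. Col18a1, the core of collagen XVIII, had 1786 CPM in XY controls against 453 CPM in XX controls, 593 CPM in XY KO and 619 CPM in XX KO gonads, a fall of 1.59 (SE 0.19) in XY KO gonads. Sdc4, a syndecan, fell by 0.99 (SE 0.15), and Sdc3 was the third. The same 3 were called lower in XX than in XY controls, and were called higher in the interaction. At E11.5 Sdc2 alone was called, higher in XY KO gonads (0.48 ± 0.10). Agrn, which encodes agrin, had log2 fold changes of 0.34 and 0.59 in XX KO gonads at the earlier and the later stage and was not called (edgeR, FDR = 0.0516 and 0.0600), and Sdc1 was at 0.29 in XX KO gonads at E11.5, also not called.

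Of 12 tested genes for Hedgehog ligands and their reception, 6 were lower and 2 higher in XY KO than in XY control gonads at E12.5, where 10.3% of all genes were called in each direction. The ligand Dhh fell from 171 to 3.50 CPM, with a log2 fold change of −5.62 ± 0.25 (edgeR, FDR = 3.41e-09). Gli1, a target of the pathway, had 116 CPM in XY controls, 6.96 CPM in XX controls, 28.4 CPM in XY KO and 29.8 CPM in XX KO gonads. It was called lower in XY KO gonads (−2.02 ± 0.35) and higher in XX KO gonads (edgeR, FDR = 0.00913), and like those of Gpc3 its KO means lay between the control means. Gli2, a transcription factor of the pathway, fell by 0.59 in XY KO (SE 0.17) and rose by 0.65 in XX KO gonads (SE 0.17), and the co-receptor gene Gas1 rose in both, by 0.92 ± 0.22 and 0.82 ± 0.22. Hhip, which sequesters the ligands, fell from 153 to 3.77 CPM in XY KO gonads, and Shh, at 2.36 CPM or less in each group, also fell. Dhh is also among the Sertoli markers, which fell together in XY KO gonads. At E11.5 Dhh was lower (−3.70 ± 0.57) and Hhip (0.87 ± 0.16) and Shh (1.77 ± 0.40) higher in XY KO gonads, and Gli2 (0.46 ± 0.10) and Hhip (0.66 ± 0.16) were higher in XX KO gonads.

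Within the family, Gpc3 varied most like Gpc6 and Gpc1 over the 24 libraries, with each gene centred on its stage. Pearson's r was 0.69 for Gpc3 with Gpc6 and 0.67 with Gpc1, and −0.58 for Gpc2 with Gpc6. These are descriptions, since the libraries of a stage share genotype and tissue. Among 13783 genes tested at both stages, those most like Gpc3 were Rcn1 (r = 0.95), Bzw2 (0.92) and Ckap4 (0.90). For Gpc1 they included Pcolce (0.93) and Smtn (0.93), and for Gpc6 they were Rnf150 (0.96), Unc5c (0.91) and Cask (0.91). Gpc2 was most like Ttc5 (0.93), Trim68 (0.93) and Firre (0.90). Gpc4 had the weakest likeness, with C1ra (0.81), Cygb (0.81) and Pdk2 (0.80). Gpc5 varied most like Crp (0.97), Tinag (0.96) and Me3 (0.95), and Tinag is known as an antigen of the basement membrane of kidney tubules. Gpc5 was among the genes compared only because KO libraries brought it past the filter at E12.5, so its likenesses add no support.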

How the data were processed

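Total RNA of mouse gonads was sequenced in 24 libraries, 3 for each of 4 genotypes at each of 2 stages. The authors mapped read pairs to the mm10 genome (GRCm38) with the Subread package and counted them per gene with featureCounts, and the tables they deposited hold raw counts for each gene. The gene annotation and the strand setting are not given in the sources used here. Libraries were grouped by their labels, which give no litter or day, so p-values measure the spread between these pools. Another 12 columns, of Foxl2 mutants, were not used.

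The filter required 1 CPM or more in 2 or more libraries and kept 14217 genes of the E11.5 table and 14348 of the E12.5 table. Each stage was fitted with edgeR 4.0.16 in R 4.3.3 (TMM, robust dispersions, quasi-likelihood test, 1 mean per genotype), and genes with FDR under 0.05 were called; each SE was derived from the log2 fold change and its F statistic. On simulated counts for XY KO against XY control, 85.5% of 200 genes changed 2-fold were recovered among 14045 genes at E11.5 and 73% among 14113 at E12.5. False calls numbered 12 and 13, and changes smaller than 2-fold, as many glypican differences were, were not simulated. RPKM used the longest coding transcript of the GRCm38 annotation. Alternatives were library-size and RLE scaling, DESeq2 1.42.0, other filters, smaller fits, a replicate block and leaving out each library; those for libraries outside a comparison and for other named genes were chosen after seeing the data.

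The members, gene lists and marker lists were chosen with earlier results of these data known. Named genes were all glypicans and Mir17hg, list genes called in at least 2 of the 4 KO comparisons or with the 2 smallest FDR in one, called protein-coding genes within 10 Mb of Mir17hg, and for each glypican the 3 genes of highest correlation. Sdc3, Hs2st1, and marker genes are named outside that rule, after their values were seen. A marker gene and a gene among those most like Gpc1 are not reported here, and the marker sums were computed without the former.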

Additional observations from a re-analysis of the deposited data

Results flagged for a closer look

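The effect of the deletion differed between XX and XY gonads at E12.5 for many named genes by the interaction test (edgeR quasi-likelihood, FDR under 0.05). Among the glypicans and the Hedgehog and heparan sulphate list genes named by rule there were 13, 2 of them glypicans. The difference of the log2 fold changes, XX minus XY, was 1.32 for Gpc1 and 1.32 for Gpc3. Among Hedgehog genes it was 5.47 for Dhh, 5.09 for Hhip, 4.32 for Shh, 4.11 for Gli1 and 1.24 for Gli2. For other proteoglycan cores it was 2.04 for Col18a1 and 1.27 for Sdc4. Of the genes acting on heparan sulphate, Sulf2 had 1.09, and Hpse (−1.78), Sulf1 (−1.90) and Ndst4 (−4.21) had negative differences. Sdc3, named outside the rule, was also called. Of the 32 tested genes within 10 Mb of Mir17hg, 1 was called higher and 5 lower in this test. They were Slitrk1, Rap2a, Stk24, Slc15a1, Dock9 and Nalcn. Over all genes tested at E12.5, 12.9% passed this test.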

How the results depend on the processing

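The calls of Gpc1, Gpc2 and Gpc3 between control sexes at E12.5, and both interaction calls, held in each alternative. Gpc4 was called there with library-size scaling (0.45, edgeR, FDR = 0.0372). At E11.5, for XY KO against XY control, DESeq2 called 2 glypicans (Gpc3 and Gpc6) and a fit of only the genotypes compared called 0, in place of 1. At E12.5 that smaller fit called 0 in XX KO against XX control, in place of 2 with Gpc5 counted. Gpc6 in XY KO against XY control at E12.5, at −0.00, was 0.032 with library-size scaling and 0.0066 with no CPM filter. Without single libraries, the number called ranged from 0 to 2 (XX against XY control, E11.5), 0 to 3 (XY KO, E11.5), 1 to 4 (XY KO, E12.5), 0 to 2 (XX KO, E12.5) and 0 to 1 (XX KO against XY KO, E12.5). The lone XY KO call at E11.5 was lost without XY control replicates 1 or 3 or XY KO replicates 1 or 2. In XY KO at E12.5, 1 to 2 were called without any XY control library or without XY KO replicates 1 or 2. In XX KO at E12.5, 0 were called when XX control replicates 1 or 2 or XX KO replicate 3 were left out, and 1 when XX KO replicate 2 was.

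Uncalled log2 fold changes that turned sign without a library ranged, at E11.5, from −0.13 to 0.057 (Gpc1, XY KO against control), −0.13 to 0.034 (Gpc2, XX KO against control), −0.17 to 0.11 (Gpc4, XX KO against control), −0.17 to 0.051 (Gpc3, XX KO against XY KO), −0.045 to 0.17 (Gpc1, XX KO against XY KO), −0.083 to 0.31 (Gpc5, XX KO against XY KO), −0.29 to 0.11 (Gpc5, interaction) and −0.017 to 0.41 (Gpc4, interaction). At E12.5 they ranged from −0.070 to 0.056 (Gpc6, XY KO against control), −0.18 to 0.14 (Gpc2, XX KO against control), −0.14 to 0.42 (Gpc6, XX KO against control) and −0.14 to 0.43 (Gpc6, interaction). The cause was not tested. For the other named genes 1774 of the recomputed values kept their call and 199 lost it, and none turned sign.

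Deviations of same-numbered libraries had correlations from −0.20 to 0.35 at E11.5 (median 0.015) and from −0.38 to 0.29 at E12.5 (median −0.045). Medians for libraries of different number were −0.030 and −0.0067. At the earlier and the later stage 7 and 4 of 12 libraries correlated best with their own number. With a replicate block Gpc6 lost its call between controls at E12.5 (−0.65, FDR = 0.0543), which left 3 called, and it changed no other call of a glypican. Gpc5 had at most 75 counts in a library at E11.5 and 45 at E12.5, which limits the precision of its values.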
